A study of Hordeum vulgare with 10 samples.

Results

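The genes described here are barley genes that were expressed in roots and practically silent in shoots. A gene entered when its identifier begins with MLOC, when it is listed in the root and the shoot table, and when its mean normalized count over all shoot libraries was under 1. Of 24211 such identifiers in both tables, 4955 met the shoot limit, and 2590 of these had reads in control roots. The 200 with the highest mean normalized count in control roots are the shoot-silent root genes of this text, out of 24313 genes in the root table. The Pi-related genes of the study were left out before ranking. This concerned 1 gene that would have entered, MLOC_28370 (PHT1;1, a Pi transporter). The control root means and the shoot means therefore chose the genes, and both are given as a description only.

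Heated roots were taken from 2-week-old plants of barley cultivar Rolap after 1 h at 35.5 °C, and control roots from plants of the same age and cultivar kept at 22 °C (2 libraries per condition). Heated and control shoots came from the same scheme (3 libraries per condition). The labels name whole root and whole shoot tissue and no mutant or transgene. Pi homeostasis was the subject of the study. It followed Pi-related gene expression and Pi concentration at several times of heat, and also studied Pi starvation and re-supply. Its sequencing covers 1 h of heat. Normalized counts are reads per gene after division by a size factor that evens out library depth.

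Roots take up water and mineral nutrients from the soil, load them into the xylem and control their passage with barriers such as the Casparian strip of the endodermis. Genes that serve such tasks, for example uptake transporters and enzymes of barrier and cell wall formation, are often transcribed in roots and hardly at all in leaves. Heat turns on chaperone genes within minutes while the transcripts of many other genes decline. The identifiers of the shoot-silent root genes could not be turned into gene names, because 0 of the identifiers matched the RefSeq gene table used here (MorexV3 assembly) and the deposited tables do not pair them with names. The functions of these genes are therefore not described, and 4 of them are named by identifier.

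The 2 heated root libraries held 16648491 and 16026856 reads in genes, and the 2 control root libraries 16830180 and 16142080. The libraries are told apart by their size factors, which were 0.854 and 0.837 for heated and 1.22 and 1.16 for control roots. The heat marker Hsp90.1 (MLOC_5618), a cytosolic chaperone, had 158900 and 172563 reads in heated roots, against 252 and 139 in control roots, which fits the labels. Over all 18453 root genes tested with edgeR's quasi-likelihood test, 43.9% differed between heated and control roots at an adjusted p under 0.05.

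The shoot-silent root genes left hardly a trace in shoots. No read was counted in any of the 6 shoot libraries for 78 of the 200 genes. Another 50 had reads in heated shoots alone, 23 in control shoots alone and 49 in both. Summed over the 200 genes, 90, 62 and 19 reads were counted in the 3 heated shoot libraries, against 37, 54 and 43 in the 3 control shoot libraries. The ranges of the heated and the control shoot libraries overlap, and the heated libraries include both the highest and the lowest sum. A single gene had at most 6 reads over all shoot libraries and at most 4 in any one of them. An absence of reads allows up to 0.0683 CPM, the read count scaled to the reads in genes of a library, in heated and 0.0686 CPM in control shoots, taking 3 reads over the group as the limit, for counting error only. The same genes lay between 24.5 and 666 CPM in control roots. Root and shoot tables were normalized separately, so each CPM value refers to the gene reads of its own table.

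In heated roots the 200 genes had mean normalized counts between 20.6 and 4946, with a median of 419, and in control roots between 339 and 9227, with a median of 732. All 200 passed the filter on low counts. Levels are read counts and were not divided by gene length, so a long gene ranks higher than a short one with as many transcripts. The last gene that entered had a heated root mean of 238 and a control root mean of 339, and the first gene left out by rank had 45.8 in heated and 335 in control roots. At the shoot limit, the gene with the highest shoot mean inside had 0.994 normalized counts in shoots, with 1360 in heated and 1753 in control roots. Just outside, a gene with a shoot mean of 1.05 had 13448 normalized counts in heated roots and 12724 in control roots. It would have headed the ranking.

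Heated roots held fewer reads of the shoot-silent root genes. Together these genes took up 0.690% and 0.686% of the reads in genes in the 2 heated root libraries, against 1.62% and 1.64% in the 2 control root libraries. Shares of all reads also move with the composition of a library. In normalized counts the sums over the 200 genes were 134580 and 131454 in the heated libraries, against 223328 and 228361 in the control libraries, a smaller difference in the same direction. On both scales the heated libraries were close to each other and below both control libraries. The control root means that chose the genes also make up the control sums, which favours lower sums in heat. The size of this difference is therefore a description only. The 10 genes with the highest control root mean held 22.6% and 20.1% of these reads in the heated and 22.8% and 20.8% in the control libraries. They are not the 10 genes with the most reads in heated roots. In whole roots, less RNA per cell and fewer cells of a type cannot be told apart. The 7093 other root genes of like expression, defined further on, took up 61.7% and 61.8% of the reads in heated and 66.2% and 65.9% in control roots.

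**Figure D1:**
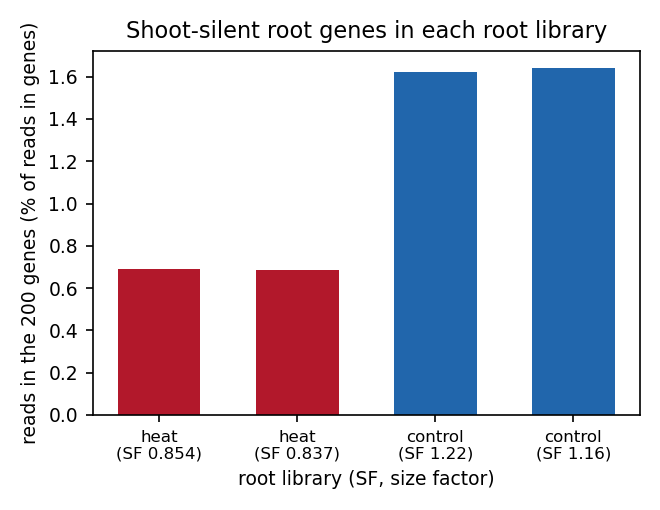
Reads in the 200 shoot-silent root genes as a percentage of all reads in genes, for each of the 4 root libraries (1 bar per library, red for heat, blue for control, SF for the size factor that identifies the library). Both heated libraries lie at 0.69%, and the control libraries at 1.62% and 1.64%. The sums of normalized counts differ less, with 134580 and 131454 in heat, against 223328 and 228361 in the control. The genes were chosen by their control root means, which favours lower values in heat.

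Most single genes of this list were lower in heated roots as well, under the same choice by control root mean. With edgeR's quasi-likelihood test fitted over all root genes, 139 of the 200 genes were lower in heated roots and 11 were higher at an adjusted p under 0.05, and 50 did not pass. These are 69.5% and 5.50% of the shoot-silent root genes, while over all genes tested 22.4% were lower and 21.5% were higher. The median log2 fold change of the 200 genes, heated over control, was -0.97, with quartiles of -1.43 and -0.29. The median over all genes tested was -0.0035. A decrease of 2-fold or more was called for 95 genes, which is 47.5% of the list, against 11.4% of all genes tested. Among these, 24 fell 4-fold or more (2.74% of all genes tested did so) and 9 fell 8-fold or more (0.770% of all genes tested). An increase of 2-fold or more was called for 2 genes, or 1.00%, against 10.1% of all genes tested. In 154 of the 200 genes the higher heated value was still under the lower control value, and in 18 genes the reverse was seen, which is 77.0% and 9% of the list. Over all genes tested these shares were 37.1% and 36.3%. All 200 genes kept at least 11 reads in each heated root library, so that none was lost from the heated roots altogether.

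**Figure D2:**
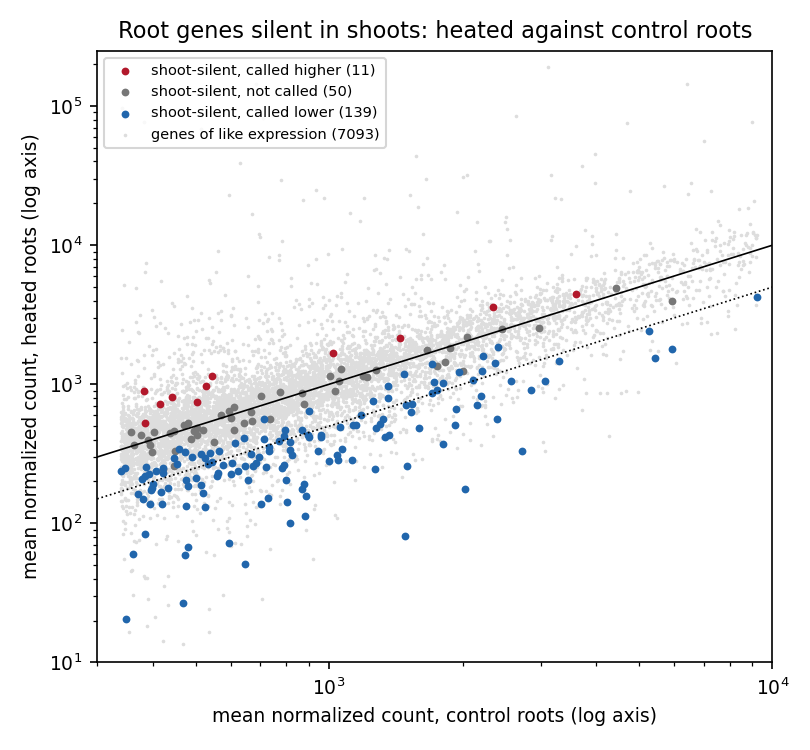
Mean normalized counts in heated roots (vertical, log axis) against control roots (horizontal, log axis) for the 200 shoot-silent root genes (coloured by the edgeR call) and for 7093 root genes of like expression (grey). The solid line marks equal levels and the dotted line a 2-fold decrease. Of the coloured points, 139 are called lower, 11 higher and 50 are not called.

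The ranking rule bears on these counts, since the control root mean both chose the genes and enters the fold change. A gene that happened to read high in the control libraries is more likely to enter and to appear lower in heat. The genes were also ranked on a single control library, and heat was compared with the other control library alone. The median log2 fold change was then -0.97 with the first and -0.90 with the second library used for ranking. For root genes of like expression, defined in the next paragraph, the medians were 0.038 and 0.018. The 2 lists ranked this way shared 194 and 195 of the 200 genes. Both control libraries are of 1 condition, so this comparison bears on noise in single libraries. It does not remove the choice of genes by their level in control roots. When the 200 genes with the highest heated root mean were taken instead, of which 153 are the same genes, 92 were lower and 32 higher, with a median log2 fold change of -0.34. Ranked by the mean of both conditions, 120 were lower and 20 higher, while 21.5% of the genes of like expression were lower and 28.3% higher. The direction was thus the same under each ranking, and its size depended on it.

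Root genes of like expression served for comparison. These were genes with a shoot mean of at least 1 whose control root mean fell into the range of one of the 4 quartiles of the shoot-silent root genes, with equal weight for each quartile. Of these genes, 25.04% were lower and 25.1% higher in heated roots (edgeR, adjusted p under 0.05), and the mean of the 4 medians was a log2 fold change of 0.02. A decrease of 2-fold or more was called for 8.33% of them. The quartiles of the whole band were -0.39 and 0.37. Of the 7093 comparison genes, 4977 had a shoot mean of 100 to 1000 and 1075 one above 1000. The 170 with a shoot mean of 1 to 10 were closer to the shoot-silent root genes. Of these, 61.8% were lower and 11.2% higher, with a median of -0.69. No test was made between the lists, since genes are not replicates. When both lists were built from the heated root mean, 18.7% of the comparison genes were lower and 27.6% higher, beside the 92 and 32 of 200 shoot-silent root genes.

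The picture held at each level of expression. In the lowest quartile, with control root means of 339 to 489, 31 of 50 shoot-silent root genes were lower and 4 higher, with a median log2 fold change of -0.77. Of 1604 comparison genes in that range, 23.0% were lower and 24.7% higher. In the second quartile 33 of 50 were lower and 3 higher (median -0.83), and in the third 38 of 50 were lower and 1 higher (median -1.16). Among the most abundant 50 genes, with control root means of 1344 to 9227, 37 were lower and 3 higher, with a median of -0.97, while 26.1% of 1933 comparison genes were lower. The share of comparison genes that were lower was 25.1% and 26.0% in the middle quartiles.

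**Figure D3:**
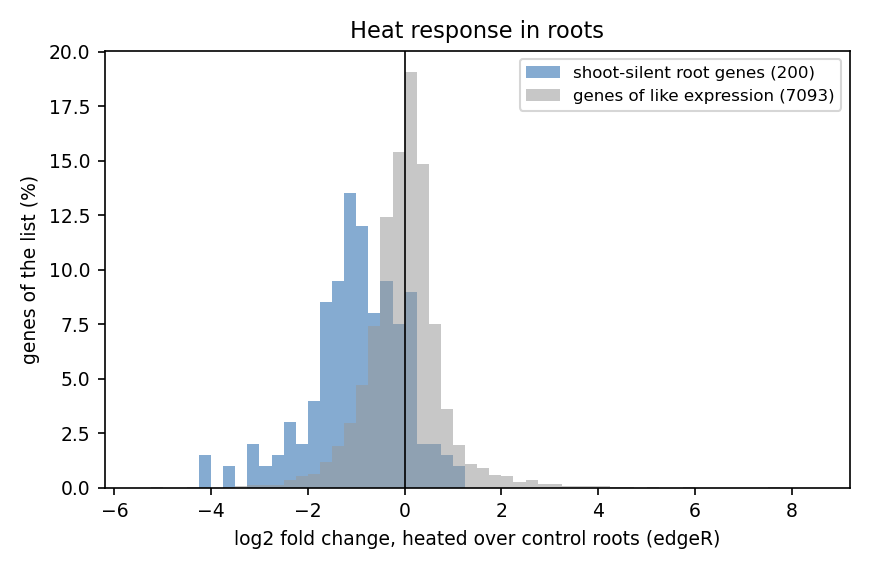
Distribution of log2 fold changes (edgeR, heated over control roots) as the percentage of genes per bin, for the 200 shoot-silent root genes (blue) and the 7093 genes of like expression (grey). The blue histogram is centred near -0.97 and the grey one near 0, and blue spans -4.21 to 1.21.

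For most shoot-silent root genes, replicate libraries of one condition differed by much less than the median change with heat. The median absolute log2 ratio between the 2 heated libraries was 0.17 for the shoot-silent root genes, and that between the 2 control libraries was 0.20. For the comparison genes these values were 0.13 and 0.14. The standard error (SE) of the log2 fold change of a shoot-silent root gene had a median of 0.14 and ranged from 0.10 to 0.44. The smallest decrease that passed the test was 0.29 on the log2 scale. Of the 50 genes that did not pass, 30 had a negative and 20 a positive log2 fold change, between -0.79 and 0.33. For 4 of these, an approximate 95% confidence interval reached a 2-fold change, so that the data leave such a change possible. This interval was taken from the SE with a normal quantile. With 2 libraries per condition it is narrower than the edgeR test implies, so more genes may reach such a change.

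Among the 10 genes with the highest control root mean, 6 were lower, 1 was higher and the others did not pass. The gene ranked first had 4649 and 3846 normalized counts in the heated root libraries, against 9595 and 8859 in the control libraries, which gave a log2 fold change of -1.12 with an SE of 0.12 (edgeR-adjusted p = 0.00041). Both heated values of this gene were under both control values, and the heated level was 0.46 of the control level. The fourth gene had 1431 and 1634 normalized counts in heat, against 4666 and 6216 in the control, and its log2 fold change was -1.83 with an SE of 0.16 (edgeR-adjusted p = 0.00013). The sixth gene did not follow. It had 5253 and 4638 normalized counts in heated roots, against 5430 and 3458 in control roots, and these ranges overlap (log2 fold change 0.15 with an SE of 0.20, edgeR-adjusted p = 0.58). The seventh gene had 4732 and 4219 normalized counts in heated roots, against 3709 and 3508 in control roots, and was the only one of the 10 called higher, with an edgeR-adjusted p of 0.0495 that is just inside the threshold. These genes were singled out after their values were seen.

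The 2 strongest decreases among genes whose heated and control libraries did not overlap were those of MLOC_14974 and MLOC_45233. MLOC_14974 had 50 and 86 reads in the heated root libraries, against 1694 and 1830 in the control root libraries. This corresponds to 58.6 and 102.8 normalized counts in heated roots, against 1387 and 1578 in control roots, and to a log2 fold change of -4.21 with an SE of 0.23 (edgeR-adjusted p = 1.6e-05). In shoots it had 2, 1 and 0 reads in the heated libraries and no read in the 3 control libraries. MLOC_45233 had 21 and 24 reads in heat, against 535 and 581 in the control, with a log2 fold change of -4.14 and an SE of 0.20 (edgeR-adjusted p = 7.7e-06). After 1 h of heat these genes stood at 0.054 and 0.057 of their control level.

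Increases were few and small beside these decreases. The 11 genes that were higher in heated roots had a median log2 fold change of 0.72. The largest rise was that of MLOC_5534, with 698 and 805 reads in heated roots, against 416 and 494 in control roots (817 and 962 normalized counts, against 341 and 426). On the log2 scale it rose by 1.21 with an SE of 0.15 (edgeR-adjusted p = 0.00079). MLOC_61562 had 933 and 993 reads, against 675 and 625, and rose by 1.06 on the log2 scale with an SE of 0.11 (edgeR-adjusted p = 0.00031). It lay close to the shoot limit, with a shoot mean of 0.960 normalized counts. No shoot-silent root gene of this list rose more than MLOC_5534, whereas the comparison genes reached a log2 fold change of 8.16. These are the extremes of 200 and of 7093 genes. Among the 968 other shoot-silent genes tested, all below the 200 in control root mean, the highest log2 fold change was 8.33. The ranking by control root mean kept such genes out of this list. The shoot limit also covers heated shoots. A gene that heat raised above the limit in shoots could thus be a comparison gene but not a member. With the limit on control shoots alone, 4 of the 11 genes that entered were higher in heated roots and 2 lower.

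**Figure D4:**
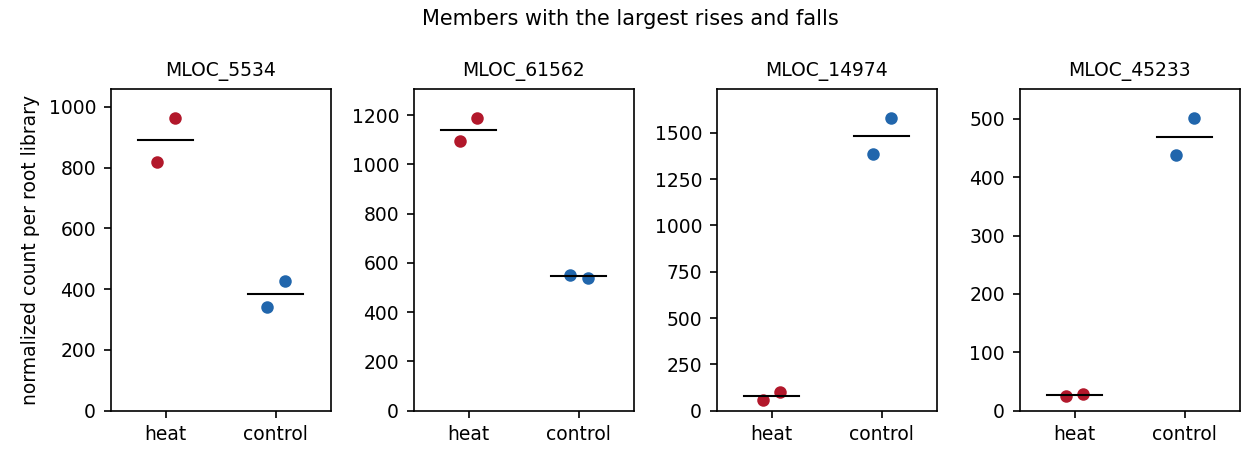
Normalized counts in each root library (points) and the mean of each condition (lines) for the 2 largest rises and the 2 largest falls among the shoot-silent root genes, each on its own linear axis from 0. Heated libraries (red) lie left of control libraries (blue), and in each of the 4 genes the conditions do not overlap.

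Within 1 wide band of control root means, the response in roots followed the level in shoots. The shoot classes were not matched by control root level within the band. Their order depended on grouping by the control root mean, which also enters the fold change. All root genes whose control root mean lay between 339 and 9227 were grouped by their mean normalized count in shoots. Of the 78 genes with no shoot read, 74.4% were lower and 5.13% higher in heated roots. Of the 122 genes above 0 and under 1, 66.4% were lower and 5.74% higher. These are the 200 shoot-silent root genes. Of 170 genes with a shoot mean of 1 to 10, 61.8% were lower and 11.2% higher, and of 871 genes with 10 to 100, 44.8% and 12.5%. Of 4977 genes with a shoot mean of 100 to 1000, 22.2% were lower and 25.1% higher, and of 1075 genes above 1000, 17.1% were lower and 37.9% higher. The medians of the log2 fold change along these 6 classes were -1.02, -0.87, -0.69, -0.35, 0.05 and 0.18.

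**Figure D5:**
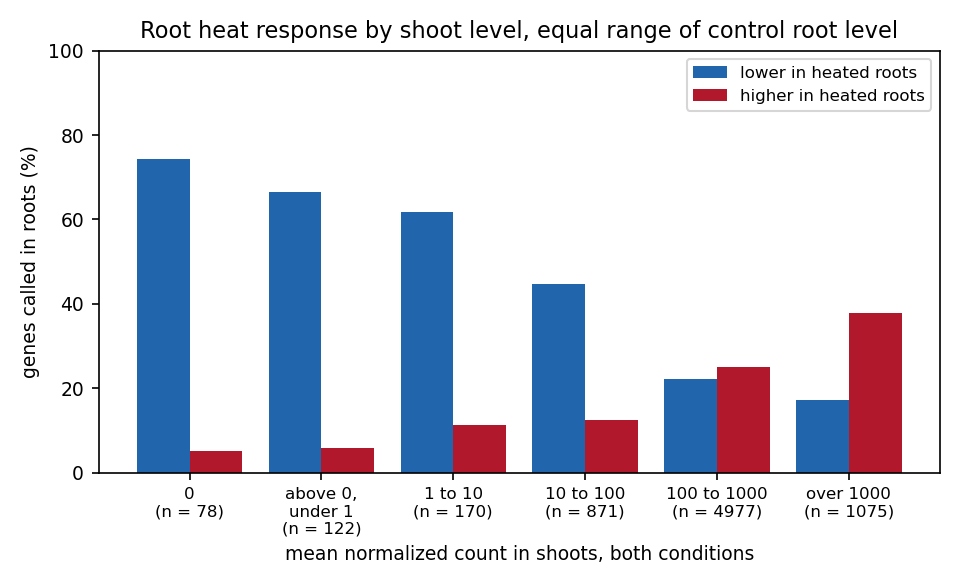
Percentage of root genes called lower (blue) or higher (red) in heated roots by edgeR at an adjusted p under 0.05, by their mean normalized count in shoots, for genes with control root means of 339 to 9227. The share called lower is 74.4% in the class with no shoot read and 17.1% in the class above 1000. The control root mean sets the band and also enters the fold change. In a band of heated root means these shares were 46.5% and 18.8%, and the classes were not in order.

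The shoot mean covers heated as well as control shoots, so that a gene switched on by heat in shoots leaves the low classes. With the limit set on control shoots alone, 189 of the 200 genes were the same, 134 were lower and 14 higher in heated roots, and the median log2 fold change was -0.89. Of the 11 genes that entered, 4 were higher and 2 lower in heated roots, and their heated shoot means were 1.40 to 4.19. Grouped by control shoots alone, 72.9% of 129 genes with no read in control shoots were lower, 58.0% of 69 genes above 0 and under 1, and 62.8% of 156 genes with 1 to 10, so that the lower classes were then out of order. In a band of heated instead of control root means, from 248 upwards, 46.5% and 45.7% of the genes in the 2 silent classes were lower, against 28.4% at a shoot mean of 1 to 10 and 16.5% at 10 to 100. There the share of genes that were higher was 18.3% and 14.7% in the silent classes, against 39.7% at 1 to 10 and 34.1% above 1000. The medians were -0.36 and -0.34 in the silent classes, against 0.18, 0.19, 0.13 and 0.14 in the classes above the limit. In this band the median thus changed sign at the limit of 1 and showed no order above it, and the share that was lower was 16.9% at 100 to 1000 and 18.8% above 1000.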

How the data were processed

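The authors aligned reads of strand-specific libraries to the barley genome of Ensembl Plants (TopHat2), counted reads per gene (HTSeq) and tested each tissue (DESeq). Tool versions and the strand setting of the counting are not given in the sources used, and overlapping genes and near-identical copies cannot be recognised from the identifiers. Their deposited tables hold a signal value, the mean normalized count of each condition and of both. They also hold fold changes, p-values and adjusted p-values, which were not used. Both tables of called genes were left out.

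Each root mean, written with 15 digits, is a sum of whole reads of 2 libraries, each times a fixed step. All 21350 heated and 21408 control root means above 0 were split, each in 1 way. Shoot means of genes with an overall mean under 5 were split likewise. Size factors recomputed from the reads differed by at most 0.00475%. Lines that name no gene held 60.6% of the normalized reads in heated and 60.4% in control roots and were left out.

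The recovered reads were tested with the quasi-likelihood test of edgeR 4.0.16 in R 4.3.3, after filterByExpr and with TMM scaling and Benjamini-Hochberg adjustment, the main test because group means alone allow none. Fits were tested on simulated data. DESeq2 1.42.0, limma 3.58.1, other scalings, thresholds, lists and left-out libraries were alternatives. The methods speak of biological replicates. Recovered libraries carry no replicate letter, and p-values measure the spread between 2 libraries per condition. The submitters' library names follow another pattern for root replicate A than for B, in both conditions, and a batch behind this was not tested.

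The list, its limits and the comparison lists were chosen with earlier results of these data known. Named genes are the 2 largest rises and 2 largest falls among called genes whose libraries do not overlap between conditions. Other genes are given by rank in control roots.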

Additional observations from a re-analysis of the deposited data

How the results depend on the processing

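With libraries scaled to their total reads in genes, the median of all genes tested moved to -0.48 on the log2 scale, 2 shoot-silent root genes were higher and 173 lower (median -1.44), 9.22% of the comparison genes were higher and 57.7% lower (median -0.46), and of all genes 1916 were higher and 9071 lower. Relative to the median of all genes, the median of the shoot-silent root genes stayed between -0.98 and -0.90 over 12 fits. At an adjusted p under 0.01, 6 shoot-silent root genes were higher, beside 16.3% of the comparison genes, 2579 of all genes higher and 2507 lower. With a change of at least 2-fold required, 2 were higher, beside 6.75% of the comparison genes higher and 8.33% lower, and 1857 of all genes higher and 2095 lower. Of the first 100 genes, 4 were higher and 75 lower (median -1.10), beside 25.6% and 26.0% of their comparison genes. Of the first 400, 26 were higher and 252 lower (median -0.85), beside 22.6% and 23.6% of theirs. Ranked by the heated root mean, 32 were higher and 92 lower (median -0.34, comparison genes 0.10), and ranked by both conditions 20 were higher (median -0.76, comparison genes 0.076). The median was -1.06 for genes with no shoot read, -0.89 with the limit on control shoots alone and -0.90 when the second control library ranked the genes. It was 0.081 for comparison genes with a shoot mean of at least 100. Leaving out each library in turn gave medians of -0.98 to -0.90, beside 0.013 to 0.030 for the comparison genes. A fit with 1 library left in a condition assumes that it varies like the others. With DESeq2, 9 shoot-silent root genes were higher and 134 lower, beside 22.2% and 21.9% of the comparison genes. Of all genes, 3313 were then higher and 3118 lower. The alternatives on 1 control library, on control shoots alone, on the band of heated root means and on the pairings were chosen after seeing the data. Each of the 4 named genes kept its call in 11 of 11 other fits. The recovered libraries carry no replicate letter, so the replicate block that was planned by letter was not run. Instead both possible pairings of heated and control libraries were fitted as a replicate block, with 1 residual degree of freedom each and without choosing one. They gave 15 and 9 shoot-silent root genes higher and 156 and 129 lower (medians -0.97 and -0.97), beside 37.1% and 17.2% of the comparison genes higher and 35.5% and 18.8% lower. With 2 libraries per condition, the smallest change of a shoot-silent root gene that passed the test was 0.29 on the log2 scale.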

Other observations

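Further down the ranking, the next 200 shoot-silent genes by control root mean had a median log2 fold change of -0.79 in heated roots, and 113 were lower and 15 higher by edgeR at an adjusted p under 0.05, which is 56.5% and 7.50%, against 22.4% and 21.5% of all genes tested. Over all 968 shoot-silent genes outside the first 200 with enough reads for the test, 382 (39.5%) were lower and 138 (14.3%) higher, with a median of -0.59. Of these 968 genes, 33.0% fell 2-fold or more, against 11.4% of all genes tested, and 11.7% rose 2-fold or more, which is near the 10.1% of all genes tested. The 968 genes passed a filter on low counts, which genes high in only 1 condition also pass. The next 200 were again ranked by the control root mean, which enters the fold change. No genes of like expression were matched to them or to the 968 genes.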
